A study of Homo sapiens with 4 samples.

Results

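The 10 genes CDH1, CDH2, VIM, FN1, SNAI1, SNAI2, ZEB1, ZEB2, TWIST1 and TWIST2 are the markers and transcription factors most often read as signs of an epithelial-mesenchymal transition. They were examined for accessible chromatin in a breast cancer cell line with and without the cytokine TWEAK. All 10 were found by name in GENCODE release 44. Merging the peaks of the 4 deposited lists at an overlap of 1 bp or more gave 307691 sites, and the 305 sites within 100 kb of any annotated start site of a gene of the set were taken as its sites. The rule itself uses names and distances and no measured value, but the genes were chosen with earlier results of these data known.

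In the transition, epithelial cells lose the junctions that hold them to their neighbours and take on the shape and motility of mesenchymal cells. E-cadherin, encoded by CDH1, is the adhesion molecule whose loss defines the change, and N-cadherin (CDH2) replaces it. The intermediate filament vimentin (VIM) and the matrix protein fibronectin (FN1) are products of the mesenchymal state. The SNAI and ZEB zinc-finger proteins bind E-boxes and repress CDH1, and the TWIST proteins are helix-loop-helix factors that act in the same programme. TWEAK binds the receptor Fn14, which signals through NF-kB and AP-1 among other routes.

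The assay was ATAC-seq, which marks open DNA by the insertions of a transposase. The cells were SKBR3, an established HER2-positive breast cancer line with an amplified ERBB2 gene. 2 libraries came from untreated SKBR3 cells and 2 from SKBR3 cells given 10 ng/ml TWEAK for 48 h, starved for 8 h beforehand and given fresh TWEAK after 24 h, so that both groups share the genome of 1 cell line. The labels repeat this protocol, starvation included, for all 4 libraries and do not describe how the untreated cells were handled instead. The comparison asks how chromatin at these genes differs after TWEAK. SKBR3 is also known in the literature as a line without E-cadherin, with a homozygous deletion that reaches into CDH1.

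The lists held 208407 and 228734 peaks for untreated replicates 1 and 2 and 218423 and 195388 for TWEAK replicates 1 and 2. Read depth was not given. Each peak carries 1 value, a -log10 p, from which a pileup and the background of its list were recovered. The background pileup was 3.59 and 2.24 in the untreated lists and 2.63 and 1.85 in the TWEAK lists, so the same enrichment gives another p in each list. Peaks were therefore compared by rank percentile within their list, where 100 is the strongest, and by fold over background, which is the pileup divided by that background. Since 1 background served a whole list, DNA copy number and accessibility cannot be told apart in either measure. The promoter of ERBB2, for instance, stood between 923 and 1067 fold over background in the 4 lists.

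A few of the sites described later are shown with their sequence, chosen after their values were seen to show sites with and without motifs, and read from hg38, forward strand, in a window of 201 bp around the centre of the best-ranked peak. Capitals mark a match on either strand to the AP-1 motif TGACTCA, to the NF-kB consensus or to the E-box CAGGTG, the letters bound by SNAI and ZEB proteins. The first pair ranked higher in the TWEAK libraries at the SNAI1 locus, at chr20:49930001-49930201 and chr20:50023223-50023423. The next 3 had a peak only in the TWEAK lists, at chr2:144456713-144456913, chr2:215410942-215411142 and chr18:28114607-28114807. They are 3 of 11 gained sites, and not the strongest. The pair with an AP-1 motif is not typical, since 3 of the 11 held one.
SNAI1 locus, 52.9 kb upstream: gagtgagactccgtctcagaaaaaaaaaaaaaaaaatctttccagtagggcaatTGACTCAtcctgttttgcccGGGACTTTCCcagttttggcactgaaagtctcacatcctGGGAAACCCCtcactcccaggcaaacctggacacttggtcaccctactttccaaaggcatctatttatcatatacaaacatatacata
SNAI1 locus, 40.4 kb downstream: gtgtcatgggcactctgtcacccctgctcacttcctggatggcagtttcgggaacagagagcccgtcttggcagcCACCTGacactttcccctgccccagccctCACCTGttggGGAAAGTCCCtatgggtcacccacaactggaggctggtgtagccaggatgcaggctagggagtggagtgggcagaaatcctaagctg
ZEB2 intron, gained: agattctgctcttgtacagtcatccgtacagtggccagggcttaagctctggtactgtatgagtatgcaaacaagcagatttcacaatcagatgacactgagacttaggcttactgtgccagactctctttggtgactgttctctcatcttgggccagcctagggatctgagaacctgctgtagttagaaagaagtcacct
FN1 internal start, gained: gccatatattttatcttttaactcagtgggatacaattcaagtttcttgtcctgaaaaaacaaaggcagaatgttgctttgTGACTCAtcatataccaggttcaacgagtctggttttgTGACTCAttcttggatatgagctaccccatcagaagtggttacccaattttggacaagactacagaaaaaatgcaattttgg
CDH2 intron, gained: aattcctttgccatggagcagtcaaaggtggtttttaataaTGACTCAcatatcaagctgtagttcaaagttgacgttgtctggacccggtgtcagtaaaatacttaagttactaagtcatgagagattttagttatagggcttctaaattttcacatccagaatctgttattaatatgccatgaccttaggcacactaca

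For promoters, the RefSeq table of GRCh38.p14 held 13 entries for 6 of the 10 genes, namely CDH2, VIM, FN1, ZEB1, ZEB2 and TWIST2. The pair shown is the 250 bases before a start site of CDH2 (chr18:28177131-28177380, minus strand) and of ZEB1 (chr10:31318167-31318416, plus strand), both 5′ to 3′ on the gene's strand. They are shown because the CDH2 window overlapped no site, while the ZEB1 window lay in a site of all 4 libraries and holds 1 E-box, in capitals.
CDH2 promoter: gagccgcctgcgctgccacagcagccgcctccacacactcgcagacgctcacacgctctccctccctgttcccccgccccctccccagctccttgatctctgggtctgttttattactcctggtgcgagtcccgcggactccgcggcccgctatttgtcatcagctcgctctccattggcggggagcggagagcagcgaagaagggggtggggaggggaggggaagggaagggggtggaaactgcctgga
ZEB1 promoter: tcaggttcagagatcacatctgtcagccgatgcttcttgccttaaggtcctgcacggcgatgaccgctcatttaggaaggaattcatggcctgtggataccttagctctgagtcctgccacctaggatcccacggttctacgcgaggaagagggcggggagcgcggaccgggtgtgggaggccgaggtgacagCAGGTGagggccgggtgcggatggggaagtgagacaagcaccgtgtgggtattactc

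The number of peaks at the set hardly told the groups apart. There were 212 and 229 peaks in the untreated lists and 229 and 197 in the TWEAK lists, with means of 220.5 ± 12.0 and 213 ± 22.6 (SD, n = 2 each). The groups overlapped, and the difference of -7.5 peaks gave p = 1 in a two-sided exact permutation test. With 2 against 2 libraries no such test can go below 0.333, so none can pass 0.05 and no correction for the number of tests was applied. Of the 305 sites, 128 (42.0%) had a peak in all 4 lists, against 42.8% of all sites, and 94 had one in a single list.

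Sites were spread unevenly among the genes. SNAI1 (ENSG00000124216.4, chr20:49982980-49988886, plus strand) had 170 sites within 100 kb, more than 99.0% of the 19962 protein-coding genes. CDH1 and ZEB1 stood at the other end with 3 sites each, more than 2.78% of those genes. The remaining 7 genes had between 9 and 31. Only 73 of the 170 sites of the SNAI1 window had SNAI1 as the nearest protein-coding gene, and 11 were promoter sites of other genes. Counts over the whole set are therefore given with and without SNAI1 where it decides them.

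**Figure D1:**
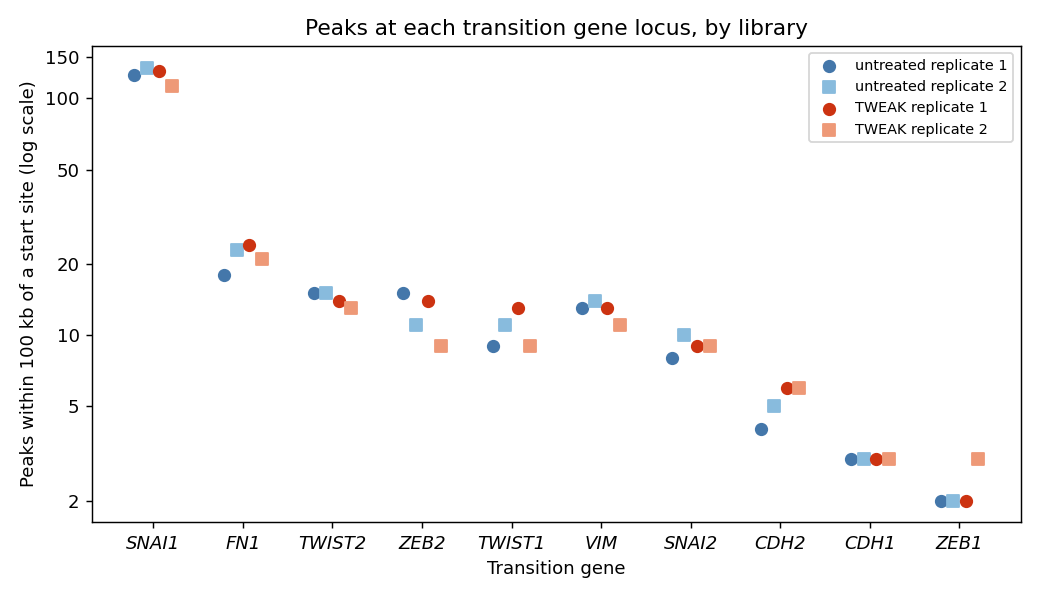
Number of peaks within 100 kb of a start site (vertical axis, log scale) for each transition gene (horizontal axis), with 1 point per library, blue for untreated and red for TWEAK. SNAI1 had between 113 and 135 peaks, and CDH1 had 3 in every library.

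The cadherins came first in the order of function. At CDH1 (ENSG00000039068.20, chr16:68737292-68835537, plus strand) no list held a peak in the gene or within 100 kb of the gene start on either side. All 3 sites counted for CDH1 lay beyond its end, in TANGO6, and came in through annotated start sites far downstream. The nearest was the TANGO6 promoter at chr16:68843295-68843818, which ranked at percentiles 86.1 and 87.1 in the untreated libraries and 83.0 and 80.6 in the TWEAK libraries.

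The stretch without a peak in any of the 4 lists ran from 68590935 to 68843294 on chromosome 16, over 252 kb, and held the start sites of CDH1 and of the neighbouring CDH3 (P-cadherin). Among 307668 stretches between neighbouring sites, 480 were at least as long, and 128 of those held a protein-coding start. From 200 to 100 kb upstream of the CDH1 start there were 2 sites, and from 300 to 200 kb upstream there were 20. Peak lists do not show whether DNA is missing or closed, and copy number was not measured here.

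**Figure D2:**
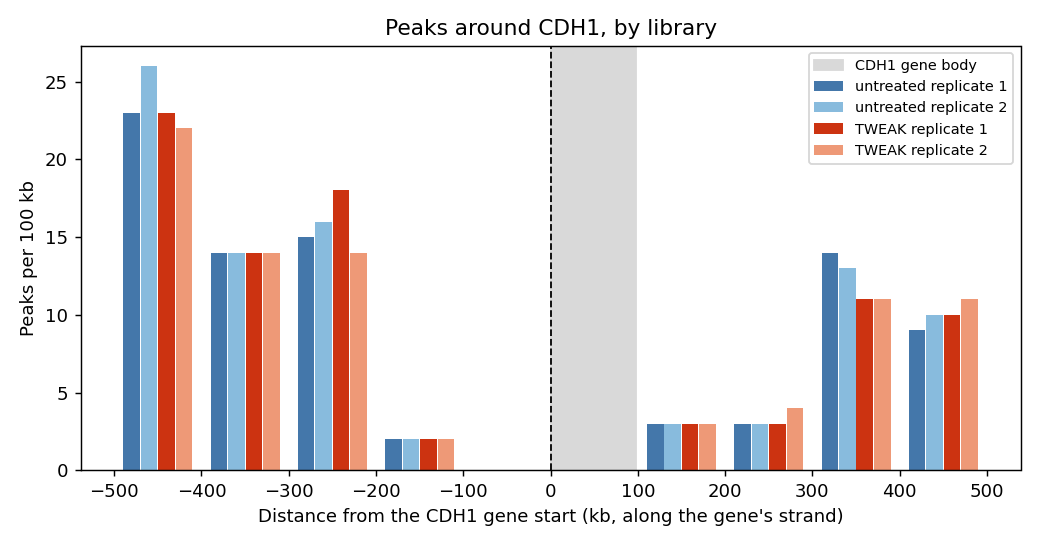
Peaks per 100 kb (vertical axis) by distance from the CDH1 start in kb (horizontal axis), 1 bar per library, with the gene body in grey. All 4 libraries had 0 peaks from 100 kb before to 100 kb after the start and between 14 and 18 from 300 to 200 kb before it.

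CDH2 (ENSG00000170558.10, chr18:27932879-28177946, minus strand) had 9 sites, with 4 and 5 peaks in the untreated lists and 6 in each TWEAK list. The groups did not overlap, with p = 0.333 in the exact permutation test, the smallest possible. Its promoter had peaks in single libraries alone. The only peak at the start of the gene was in untreated replicate 2, at percentile 3.28 and 3.13 fold over background, and 1 at an internal start was in TWEAK replicate 1, at percentile 32.5. The printed CDH2 window has a GC content of 66% and 17 CpG, both above those of most promoters in the RefSeq table, where the medians are 58% and 11. Of the 3 sites of all 4 libraries, the strongest lay beyond the end of the gene at chr18:27921923-27922465, with percentiles of 77.8 and 83.6 in untreated and 83.2 and 81.7 in TWEAK libraries, so the groups overlapped.

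The promoters of the set could be put in order by the percentile of the best-ranked site within 1 kb of a start site. SNAI1, VIM, SNAI2, FN1, ZEB1, ZEB2 and TWIST1, 7 of the 10, had such a site in all 4 libraries, against 76.0% of protein-coding genes. CDH1 and TWIST2 had none in any library, as did 16.7% of protein-coding genes. Among genes with a promoter site in all 4 libraries the median of the best site was at percentile 91.5, and only SNAI1, with a mean of 97.5, stood above it. The ranges over the 4 libraries of neighbours in this order did not overlap, although the lowest value of SNAI2 (78.3) lay just above the highest of FN1 (78.1), and the lowest of ZEB2 (35.6) just above the highest of TWIST1 (35.4).

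**Figure D3:**
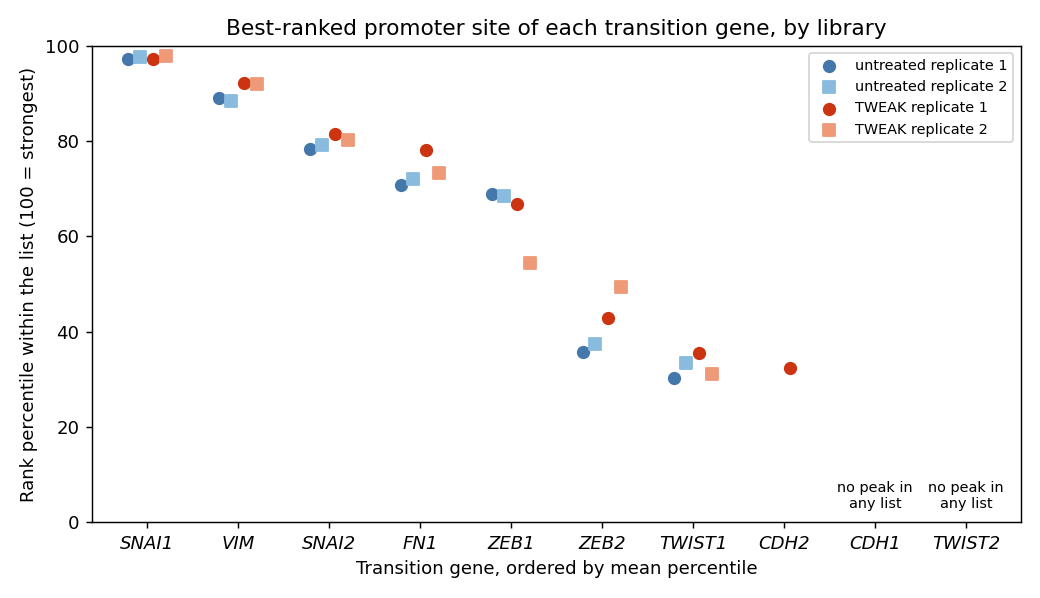
Rank percentile of the best promoter site (vertical axis, 100 is the strongest peak of a list) for each transition gene (horizontal axis), 1 point per library. VIM, SNAI2, FN1 and ZEB2 have both red TWEAK points above both blue untreated points, and ZEB1 has both below. Over the 15124 protein-coding genes whose best promoter site was in all 4 libraries, 8.36% were higher and 35.7% lower in this way. The CDH2 point is a single peak of TWEAK replicate 1.

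VIM and FN1, the structural genes of the mesenchymal state, both ranked higher at their best promoter site in the TWEAK libraries. Most of a wider list of mesenchymal and matrix genes ranked lower there, but most had a higher mean fold over background. Of the 20 genes of that list with a promoter site in all 4 libraries, 6 had a higher and 14 a lower mean percentile with TWEAK, with a median difference of -1.41, and among the 15124 protein-coding genes whose best promoter site was in all 4 libraries 26.9% and 73.1% did, with a median of -0.66. Without overlap between the groups 4 of the 20 were higher and 9 lower by rank, against 8.36% and 35.7% of the 15124 genes. By fold over background 8 were higher and 4 lower, and the share over all genes was not counted on that scale. The best site of VIM (ENSG00000026025.16, chr10:17228241-17237593, plus strand) lay 2159 bp inside the gene at an internal start, at chr10:17229995-17230805. It stood 38.5 and 39.8 fold over background in the untreated libraries and 53.9 and 60.6 in the TWEAK libraries, or percentiles of 89.1 and 88.4 against 92.2 and 92.0. The groups did not overlap on either scale, with p = 0.333 in the exact permutation test.

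Over all sites of 4 libraries the median log2 ratio of fold over background, TWEAK to untreated, was 0.14, and the VIM site had a log2 ratio of 0.55, 0.41 above the median. At the first VIM start, at chr10:17228273-17228811, percentiles were 33.1 and 33.5 in untreated and 46.8 and 40.5 in TWEAK libraries, and its log2 ratio was 0.68. Of the 11 sites of all 4 libraries at VIM, 6 ranked higher in both TWEAK libraries than in both untreated ones and 1 ranked lower. Across all 131751 sites of 4 libraries these calls took 15.8% and 35.4%. No VIM site was gained or lost.

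FN1 (ENSG00000115414.21, chr2:215360440-215436073, minus strand) had its promoter site at chr2:215435934-215436447. Its percentiles were 70.9 and 72.0 in untreated and 78.1 and 73.3 in TWEAK libraries, and its folds over background were 14.8 and 16.6 against 23.5 and 23.3. Both TWEAK values were above both untreated ones, by 4.22 percentile points and a log2 ratio of 0.58, and the exact permutation p was 0.333. Over the 14 FN1 sites of all 4 libraries 4 ranked higher and 5 lower, against 15.8% and 35.4% of all such sites. The median difference was -0.96 percentile points, against -1.75 over all such sites. Most FN1 sites thus did not rise in rank as the promoter site did. The 250 bases before the FN1 start were the most GC-rich of the 13 entries, with 76.4% GC and 32 CpG.

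The SNAI factors had open promoters with and without TWEAK. At SNAI1, the promoter site stood at percentiles of 97.2 and 97.7 in untreated and 97.2 and 97.8 in TWEAK libraries, and its log2 ratio of 0.13 was close to the 0.14 of all sites. The groups overlapped, with p = 1 in the exact permutation test. At SNAI2 (ENSG00000019549.13, chr8:48917598-48921740, minus strand), which encodes Slug, percentiles were 78.3 and 79.2 in untreated and 81.4 and 80.3 in TWEAK libraries. Here the groups did not overlap, with folds over background of 20.6 and 23.3 against 27.7 and 31.4, and p was 0.333 in the exact permutation test. None of the 13 SNAI2 sites was gained or lost.

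The ZEB genes had few or weak sites. ZEB1 (ENSG00000148516.23, chr10:31318495-31529814, plus strand) had its only site of 4 libraries at the promoter, chr10:31318125-31319200, where percentiles were 68.9 and 68.5 in untreated and 66.9 and 54.5 in TWEAK libraries. The lower rank did not hold as fold over background, which was 13.7 and 14.3 against 14.8 and 12.5, with overlap. ZEB2 (ENSG00000169554.23, chr2:144364364-144521057, minus strand) had its best promoter site 3396 bp inside the gene, at percentiles of 35.6 and 37.4 in untreated and 42.8 and 49.4 in TWEAK libraries. Its folds over background were 5.30 and 5.82 against 7.22 and 10.8. The ZEB2 groups did not overlap, with p = 0.333 in the exact permutation test. A weaker site nearer the gene start, chr2:144519882-144520469, was at percentiles of 15.1 and 33.5 in untreated libraries, 11.2 in TWEAK replicate 1 and with no peak in TWEAK replicate 2.

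Of the TWIST genes, TWIST1 (ENSG00000122691.13, chr7:19020991-19117636, minus strand) had a weak promoter site, at percentiles of 30.3 and 33.5 in untreated and 35.4 and 31.2 in TWEAK libraries. These overlapped, while the folds over background, 4.74 and 5.37 against 6.08 and 7.04, did not. TWIST2 (ENSG00000233608.5, chr2:238848032-238910534, plus strand) had no promoter peak in any list. Its start lay in a stretch of 45.6 kb without a peak, although the 250 bases before it hold 26 CpG at 68.4% GC. Peaks at TWIST2 numbered 15 in each untreated list and 14 and 13 in the TWEAK lists. Its groups did not overlap, with p = 0.333 in the exact permutation test, the smallest possible.

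Sites with peaks in 1 group alone were few. A site was called gained when both TWEAK lists and neither untreated list held a peak, and lost in the opposite case. Of the 305 sites 11 were gained, against 3.6% of all sites, and 6 were lost, against 3.79%. The share gained was 3.61% and the share lost 1.97%. The balance rests on all 4 libraries. It was 19 gained against 37 lost without untreated replicate 1, and 22 against 33 without untreated replicate 2. Without TWEAK replicate 1 it was 26 against 26, and without TWEAK replicate 2 it was 35 against 13. Over all sites the shares gained and lost were 6.54% and 15.9%, 7.63% and 11.5%, 9.09% and 9.29%, and 11.6% and 6.56%, in that order. SNAI1 took 3 of the gained and 5 of the lost sites. Without SNAI1 there were 8 gained and 1 lost among 135 sites, and CDH1, VIM, SNAI2 and ZEB1 had neither.

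**Figure D4:**
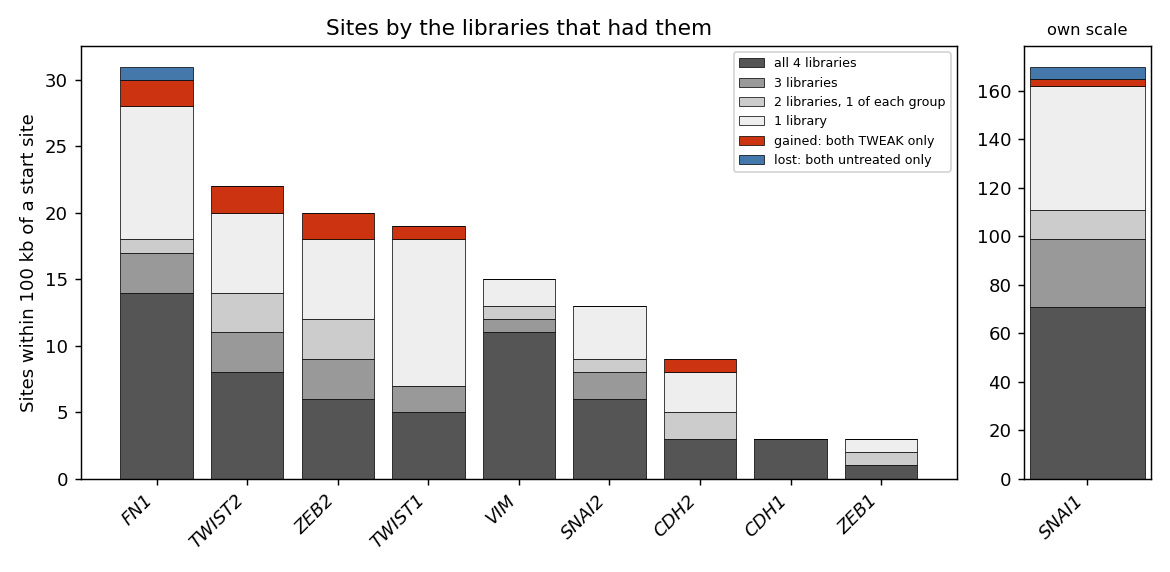
Sites within 100 kb of a start site (vertical axis) for each transition gene, divided by the libraries that had a peak there. SNAI1, with 170 sites, is drawn on its own scale, and gained sites (red) were found at SNAI1, FN1, TWIST2, ZEB2, TWIST1 and CDH2.

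The strongest gained site lay between genes in the SNAI1 window. It ranked at percentiles of 85.1 and 80.6 in the TWEAK libraries and 33.8 and 31.9 fold over background. An untreated peak lay 207 bp away. This was the only gained site above the 50th percentile in both TWEAK libraries.

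ZEB2 had the next pair. The site in its intron at chr2:144456563-144457099 stood at percentiles of 48.6 and 40.5 and 23246 bp from the nearest untreated peak. The other, at chr2:144606427-144606938, lay between genes at percentiles of 53.2 and 40.5, with the nearest untreated peak 12125 bp away. These were moderate peaks, 8.36 and 8.66 fold and 9.50 and 8.66 fold over background.

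TWIST2 also had a pair, at percentiles of 38.1 and 27.3 (chr2:238761727-238762256) and of 44.9 and 27.3 (chr2:238869621-238870210, in its intron). In FN1 the gained site at chr2:215410792-215411301 lay 842 bp from an internal start, at percentiles of 16.4 and 27.3, and its window holds 2 AP-1 motifs. The gained site in the CDH2 intron at chr18:28114457-28114985, at percentiles of 29.2 and 12.3, holds 1 AP-1 motif and lay 62835 bp from any untreated peak. Another gained site of the SNAI1 window, at chr20:49993075-49993675, stood at 25.5 and 17.9. The remaining 3 were the weakest, and 1 of them, at TWIST1, was at percentiles of 6.62 and 7.37.

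Lost sites were all weak, with no percentile above 37.4, and 5 of the 6 lay within 500 bp of a TWEAK peak, at a median of 199.5 bp. Among them were chr20:49979796-49980332, 2648 bp from the SNAI1 start, at percentiles of 15.1 and 16.0, and chr2:215269141-215269682 in the FN1 window, at 30.3 and 3.28. The other SNAI1 sites were chr20:49971083-49971644 at 30.3 and 16.0, chr20:50017098-50017644 at 15.1 and 37.4, chr20:50056335-50056910 at 15.1 and 9.60, and chr20:50065185-50065877 at 2.13 and 22.8. Of the gained sites, 4 of 11 lay within 500 bp of an untreated peak, at a median of 6313 bp.

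Among the 128 sites of all 4 libraries the mean percentile was 55.9 and 59.3 in the untreated libraries and 58.2 and 54.5 in the TWEAK libraries. The groups overlapped, and the difference of -1.29 gave p = 0.667 in the exact permutation test. 28 sites (21.9%) ranked higher in both TWEAK libraries than in both untreated ones, against 15.8% of all such sites, and 37 (28.9%) ranked lower, against 35.4%. This split depends on the scale. By fold over background 48 were higher and 13 lower, against 34.8% and 12.2% of all, and by rank among sites of all 4 libraries alone 35 were higher and 30 lower, against 23.3% and 28.0%.

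The largest upward difference was at chr20:49929810-49930356, between genes, 52.9 kb upstream of SNAI1 and 5980 bp from RNF114, the nearest protein-coding start. It was at percentiles of 23.7 and 48.9 in untreated libraries and 95.7 and 96.3 in TWEAK libraries, and at 4.18 and 7.60 against 73.7 and 87.2 fold over background. This is a log2 ratio of 3.83, and 0.00531% of the 131751 sites of 4 libraries had a larger one. The printed window holds 2 NF-kB motifs and 1 AP-1 motif. In the TWEAK libraries it ranked close to the SNAI1 promoter, whose own groups overlapped.

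The next pair lay in the SNAI1 window as well. The site at chr20:49903351-49903946, in an exon of SPATA2, stood at percentiles of 27.2 and 28.8 in untreated and 77.3 and 74.9 in TWEAK libraries, a log2 ratio of 2.35. The one at chr20:50023073-50023633, 40.4 kb downstream of the SNAI1 start with no closer protein-coding start, stood at 27.2 and 40.8 against 79.1 and 73.8, a log2 ratio of 2.20, and holds 1 NF-kB motif and 2 E-boxes. The fourth was chr10:17181714-17182259 in the VIM window, in an intron of TRDMT1, at 10.3 and 33.5 against 54.6 and 51.2, and its window holds none of the motifs. The groups of these 4 sites did not overlap, by the rule that chose them.

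**Figure D5:**
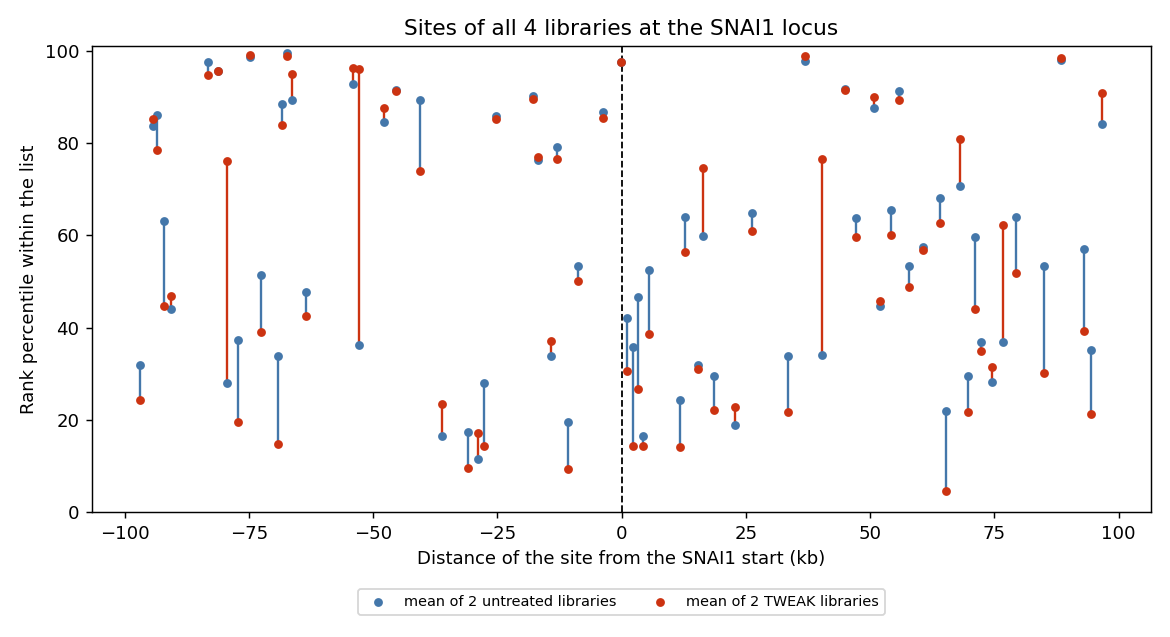
Rank percentile (vertical axis) of the 71 sites of all 4 libraries at the SNAI1 locus by distance from the SNAI1 start in kb (horizontal axis), blue for the mean of 2 untreated and red for the mean of 2 TWEAK libraries, joined by a line in the colour of the higher mean. The long red line 52.9 kb upstream of the start is the site with the log2 ratio of 3.83, and at the start itself the points coincide.

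Downward differences in rank were smaller. The largest was at chr2:238920597-238921126, between genes, 72381 bp from the nearest TWIST2 start, at percentiles of 72.2 and 68.5 in untreated and 40.6 and 31.2 in TWEAK libraries. Its folds over background were 15.6 and 14.3 against 6.84 and 7.04, a log2 ratio of -1.11, without overlap. Next by rank was chr20:50067329-50068726 in the SNAI1 window, at 50.3 and 56.4 against 25.5 and 34.6, whose folds over background overlapped.

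A weak site in the intron of SNAI1, at chr20:49985047-49985677, stood at percentiles of 38.0 and 33.5 in untreated and 21.4 and 7.37 in TWEAK libraries. In the ZEB2 window, chr2:144348746-144349265 stood at 56.4 and 61.8 against 44.9 and 31.2. Their log2 ratios were -0.30 and -0.45, and on that scale too the groups of each site did not overlap.

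Motifs were counted in the windows of 201 bp of all sites. NF-kB matches were in 16 of the 305 sites (5.25%), against 6.21% of all sites, and AP-1 matches in 28 (9.18%), against 9.02%. The E-box CAGGTG was in 79 (25.9%), against 22.0%, and the GRHL motif AACCGGTT, named for the epithelial Grainyhead-like factors, in 0, against 0.137%. None of the 11 gained sites held an NF-kB match and 3 held AP-1, where 20.1% and 16.6% of all gained sites did. Of the 28 sites that ranked higher, 3 held NF-kB and 7 held AP-1, where 12.7% and 22.1% of all sites that ranked higher did. Of the 37 that ranked lower, 2 held each, against 3.94% and 5.99% of all such sites, so the set's shares stood near those of the whole genome in both directions. A match describes letters in the window and does not show binding.

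The wider programme was read from 3 lists. Of 26 epithelial junction and identity genes, 25 had a promoter site in all 4 libraries, at a median percentile of 95.5, and the exception was CDH3. The sites near these genes were gained in 3.20% and lost in 2.84% of 1406 cases, both below the shares over all sites. Of 24 mesenchymal and matrix genes, 20 had such a promoter site, at a median percentile of 74.4, and 4.15% of their 1035 sites were gained and 4.35% lost. Of 25 further regulators and TGF-beta signalling genes, 20 had one, at a median of 92.0, with 3.48% of 947 sites gained and 3.70% lost. Among all protein-coding genes 76.0% had one, at a median percentile of 91.5.

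By genes, 13 of the epithelial list had more gained than lost sites and 8 more lost than gained. In the mesenchymal list these were 8 and 11, and in the regulator list 6 and 9. Of the 19962 protein-coding genes, 31.0% had more gained and 38.5% more lost sites. The highest balance was at SMAD3, a transducer of TGF-beta signals, with 6 gained and 0 lost among 53 sites and 36 and 36 peaks in untreated against 47 and 44 in TWEAK lists. ACTA2, smooth muscle actin, had 5 gained and 0 lost of 12, with 6 and 7 peaks against 12 and 12. OVOL2, a repressor of ZEB1 in epithelia, also had 5 gained and 0 lost. Its peaks numbered 40 and 46 against 51 and 40, with overlap. Gained sites add peaks to the TWEAK lists alone, so peak counts and balance are not independent.

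The lowest balances were at JUP, the junction protein plakoglobin, with 2 gained and 10 lost of 185 sites, at PDGFRB, a growth factor receptor of mesenchymal cells, with 3 gained and 11 lost of 144, and at S100A4, a calcium-binding protein, with 0 gained and 6 lost of 108. Genes of the lists with no promoter site in any library were CDH3, FOXC2, FOXQ1, GSC, LUM and POSTN. The locus of the microRNA 200c host gene MIR200CHG, whose products repress ZEB1 and ZEB2, had its promoter site at percentiles of 98.1 and 98.2 in untreated and 98.4 and 97.1 in TWEAK libraries, with overlap.

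The cell type was read from markers. All 10 luminal and HER2-positive epithelial markers had a promoter site in all 4 libraries, at a median percentile of 98.0. The 3 basal and 5 fibroblast markers also had one, at medians of 62.5 and 63.6, so a promoter peak alone does not set these types apart. Of the endothelial markers 2 of 3 had one, and of the blood markers 1 of 4.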

How the data were processed

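ATAC-seq was examined in 4 SKBR3 libraries, 2 untreated and 2 treated with TWEAK, grouped and numbered by their titles. The study describes cell line replicates as biological. Per the labels and the methods, the authors used Trimmomatic, Bowtie2 with hg38, Picard and MACS2, whose versions are not given in the sources used here. 1 list of peaks of 501 bp was deposited per library. The value the authors deposited with each peak is not named and was read from the values as a −log10 p, since 100% of values in each list equalled a Poisson upper tail of a whole pileup over 1 background per list, within 0.1%. Depth in reads is unknown, and the lists end where the peak caller stopped, at a pileup of 7 to 10. The pileup where a list has no peak is not known, since peaks were also removed in blacklisted regions and set to a fixed width.

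Peaks on chromosomes 1 to 22 and X were merged at an overlap of at least 1 bp. Start sites were those of all transcripts in GENCODE release 44. Promoter sites lay within 1 kb of one, and percentiles are ranks within a list. Values between groups were tested by two-sided exact permutation. The study's own test, DiffBind, works on reads, so it was not repeated. Shares of sites are descriptions, since sites are not replicates. The RefSeq promoter table gave 13 entries for the set, and all 13 equalled hg38. Sequences of 5 sites are printed, and the position of the strongest gained site is not reported here. Python 3.11.15, pandas 2.3.3 and scipy 1.17.1 were used. The scripts were tested on simulated data.

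Members, wider lists, markers and motifs were chosen with earlier results of these data known. Named were all 10 genes with their best promoter site, up to 8 gained and 8 lost sites by the lower of their percentiles, the 4 largest rank differences each way among groups that did not overlap, and, of the wider lists, the 3 genes with the highest and 3 with the lowest balance of gained and lost sites and those without a promoter site. MIR200CHG, ERBB2, further SNAI1, VIM and CDH2 sites, the TANGO6 promoter and the weak TWIST1 site were named after their values were seen. Alternatives were the merging overlap, a stricter threshold, equal list lengths, the distance, the start sites, leaving out each library and a replicate block, and, added after seeing the data, ranks among sites of all 4 libraries, fold over background and the set without SNAI1. Same-numbered libraries did not deviate together, with a correlation of replicate differences of -0.0061 over 131751 sites.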

Additional observations from a re-analysis of the deposited data

How the results depend on the processing

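The 7 genes with a promoter site in all 4 libraries stayed 7 at 2 kb and were 6 with the start of the gene record only. Within 50 kb there were 5 gained and 3 lost sites among 166, against 3.6% and 3.79% of all. Of the 71 in all 4 libraries 15 ranked higher and 19 lower, against 15.8% and 35.4% of all. With 150000 peaks per list 3 sites were lost (3.59% of all), 23 ranked lower (30.2% of all) and the difference in peaks turned to 6.5. With -log10 p of at least 5, 23 ranked lower (28.5% of all) and the differences turned to 5.5 peaks and 1.17 percentile points. Ranked among sites of all 4 libraries the percentile difference turned to 2.05, and by fold over background 48 sites were higher and 13 lower. Without SNAI1 1 of 135 sites was lost, against 3.79% of all, and the difference in peaks was 0.5. Of the 57 in all 4 libraries 14 ranked higher and 15 lower, against 15.8% and 35.4% of all. None of these differences, main or alternative, could pass 0.05 in the exact permutation test, and the causes were not tested.

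Leaving out 1 library gave between 19 and 35 gained sites, 13 to 37 lost, 36 to 52 higher and 52 to 69 lower, where all sites gave 6.54% to 11.6%, 6.56% to 15.9%, 20.2% to 31.4% and 42% to 57.6%. Fewer lists have to lack a peak or rank apart, so these counts rise by construction. The difference in peaks lay between -23.5 and 8.5 and turned without untreated replicate 2 (1 peak) and without TWEAK replicate 2 (8.5). The percentile difference lay between -3.53 and 0.074 and turned without untreated replicate 2. Each library in turn moved the gained and lost counts by over 1.5 times, as 19, 22, 26 and 35 gained and 37, 33, 26 and 13 lost without untreated replicates 1 and 2 and TWEAK replicates 1 and 2. With the replicate block 33 sites ranked higher and 47 lower, against 19.8% and 42.3% of all, and the differences of -7.5 peaks and -1.29 points had p = 1 by exact sign flips. The other alternatives left these results within 1.5 times of their value or on the same side of 0. The lowest peaks stood 2.79 to 3.79 fold over background, so weaker openings were not detectable.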
